A study of Mus musculus with 15 samples.

Results

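Transcript levels of 10 genes, the immediate early genes Fos, Fosb, Jun, Junb, Egr1, Atf3, Btg2, Dusp1 and Ier2 together with Socs3, are described here in dystrophic quadriceps muscle after vehicle, weekly or daily prednisone. The genes were taken by symbol from the deposited table of all genes, in which each of the 10 is 1 of 14272 named features. They were named for their family and not by a cut-off on their values, but with earlier results of these data known. All 10 passed the filter on low values that left 14059 genes for testing.

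The mice were DBA/2J-mdx males, which lack dystrophin on the DBA/2J background and serve as a model of Duchenne muscular dystrophy. All 3 groups of 5 libraries carry the mdx mutation and received intraperitoneal injections on every day of the week, so no library comes from healthy or uninjected muscle. The vehicle group received the solvent DMSO 7 times a week. In the weekly group, 1 injection of the glucocorticoid prednisone (1 mg/kg) and 6 of vehicle were given each week, and in the daily group 7 injections of prednisone (1 mg/kg). The protocol text gives an age of 6 months and the sample labels about 7 months. How long treatment lasted, and how long after the last injection tissue was taken, is not stated in the sources used. Nothing in the labels ties each library to its own animal, so p-values measure the spread between libraries alone, and that spread may be technical.

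Immediate early genes are switched on within minutes of a signal, without new protein synthesis, and most of their transcripts are short-lived. Many encode transcription factors: FOS, FOSB, JUN and JUNB pair as the AP-1 dimer, EGR1 is a zinc-finger factor and ATF3 a stress-induced factor of the ATF/CREB family. BTG2 is an antiproliferative cofactor of mRNA deadenylation, DUSP1 a phosphatase that switches off MAP kinases, and SOCS3 an inhibitor that STAT3 induces and that shuts down JAK signalling at the receptors of the interleukin-6 family. In skeletal muscle these genes are known to respond to contraction, injury and handling, and DUSP1 is a textbook target of the glucocorticoid receptor.

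The promoters of 4 of the genes are shown as examples of the patterns below: Socs3 and Btg2 were higher in both regimens, Dusp1 stood highest in the daily libraries, and Fos is the founding member of the class. Sequences are from RefSeq on GRCm38.p6, whose promoter table matched 8 of the 10 symbols (not Egr1 or Ier2). Each is read 5′ to 3′ on the gene's strand from base -250 of the RefSeq start, and stops before the first base that GENCODE annotates as an exon of the gene. Capitals mark a STAT site TTCNNNGAA and an EGR site GCGNGGGCG in Socs3, a CRE TGACGTCA and an EGR site in Btg2, a CRE in Dusp1 and a TATA box TATAAA in Fos.
Socs3, chr11:117969452-117969616, minus strand: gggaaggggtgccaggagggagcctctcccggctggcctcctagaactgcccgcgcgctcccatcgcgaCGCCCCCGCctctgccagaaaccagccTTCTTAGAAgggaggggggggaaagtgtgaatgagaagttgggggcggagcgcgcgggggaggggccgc
Btg2, chr1:134079156-134079405, minus strand: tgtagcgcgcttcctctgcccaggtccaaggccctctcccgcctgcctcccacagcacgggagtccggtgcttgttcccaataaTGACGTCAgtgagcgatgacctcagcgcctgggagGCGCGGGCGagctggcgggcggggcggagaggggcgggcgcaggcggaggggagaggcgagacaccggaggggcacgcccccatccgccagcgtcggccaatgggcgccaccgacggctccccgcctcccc
Dusp1, chr17:26508520-26508722, minus strand: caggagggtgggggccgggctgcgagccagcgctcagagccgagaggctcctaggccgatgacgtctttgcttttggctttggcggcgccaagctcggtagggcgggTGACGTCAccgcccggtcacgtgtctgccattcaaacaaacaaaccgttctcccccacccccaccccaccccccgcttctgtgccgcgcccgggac
Fos, chr12:85473640-85473889, plus strand: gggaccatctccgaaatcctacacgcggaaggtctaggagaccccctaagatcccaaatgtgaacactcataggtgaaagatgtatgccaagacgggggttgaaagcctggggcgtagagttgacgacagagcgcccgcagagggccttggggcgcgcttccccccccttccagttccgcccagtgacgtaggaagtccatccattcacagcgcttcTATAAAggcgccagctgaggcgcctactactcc

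The Socs3 and Dusp1 stretches lie inside the span of longer GENCODE models of these genes, in introns. Both strands of the 250 bases before each start were searched, and no 2 matches overlapped. The STAT site of Socs3 lies at -154 to -146 and its EGR site, on the other strand, at -181 to -173. In Btg2 the CRE lies at -166 to -159 and the EGR site at -131 to -123, the CRE of Dusp1 lies at -143 to -136, and the TATA box of Fos at -33 to -28. Among 32851 RefSeq promoters of that length, 7.02% hold the STAT site, 4.7% the EGR site, 1.55% the CRE and 12.4% the TATA box. Of the 8 promoters matched, 1 held the STAT site, 3 the EGR site (Btg2, Fosb and Socs3), 2 the CRE and 1 the TATA box. The AP-1 site TGANTCA (6.75% of promoters) and the CArG box of serum response factor (1.47%) were in none of the 8 windows. A match is a description of the letters and not of binding.

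Depth was 2780768 to 11052552 reads per library, and a level of 3 reads corresponds to between 0.271 and 1.08 CPM (the reads of a gene scaled to a common total per library). The vehicle libraries lay very close together, with a biological coefficient of variation of 3.55% against 29.4% in weekly (16.9% without weekly replicate 4) and 9.4% in daily libraries, but differed by more than sampling noise and were counted as 5. A pair of libraries stood apart. Weekly replicate 4 was the shallowest, with 0.57% of its values in mt-Rnr2 against 6.23% to 9.44% in the other weekly libraries. Daily replicate 3 had 20.6% of its values in Gm26924, which takes room from every other gene of that library. Its TMM factor (edgeR's trimmed mean of ratios between libraries) was 0.652, against 0.952 to 1.21 elsewhere. For the 10 genes, the result after TMM scaling is therefore given wherever a call differs from that on the deposited CPM. TMM moved the median gene from 0.17 to 0.01 (log2) in weekly against vehicle. The same step was from -0.08 to 0.00 in daily against vehicle. It was from -0.24 to 0.01 in daily against weekly. Of the genes called, 86.8% rose in weekly against vehicle (57.5% after TMM), 45.3% in daily against vehicle (61.6% after TMM) and 5.54% in the comparison of daily with weekly (44.2% after TMM).

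The comparison with vehicle asks what prednisone, at either frequency, was accompanied by in dystrophic muscle. In weekly libraries 7 of the 10 genes rose and 0 fell: Socs3, Atf3, Junb, Btg2, Fos, Egr1 and Ier2 (limma, Benjamini-Hochberg adjusted p under 0.05). Over all genes, 6.99% rose in that comparison and 1.07% fell. In daily libraries 5 of the 10 rose and 0 fell: Socs3, Atf3, Btg2, Fos and Junb, where 1.76% of all genes rose and 2.13% fell. After TMM scaling the same 7 genes rose in weekly libraries (5.71% of all genes rose), and in daily libraries Egr1 and Dusp1 joined the 5 (5.59% of all genes rose). At an unadjusted p under 0.05, 8 of the 10 were higher in weekly and 9 in daily libraries, and none was lower by limma, edgeR or DESeq2. The median of the 10 log2 changes was 1.13 in weekly and 0.93 in daily libraries, beside 0.17 and -0.08 for all genes tested, and 0.95 and 1.00 after TMM beside 0.01 and 0.00. These are bulk libraries, in which more cells of a type and more RNA per cell cannot be told apart.

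**Figure D1:**
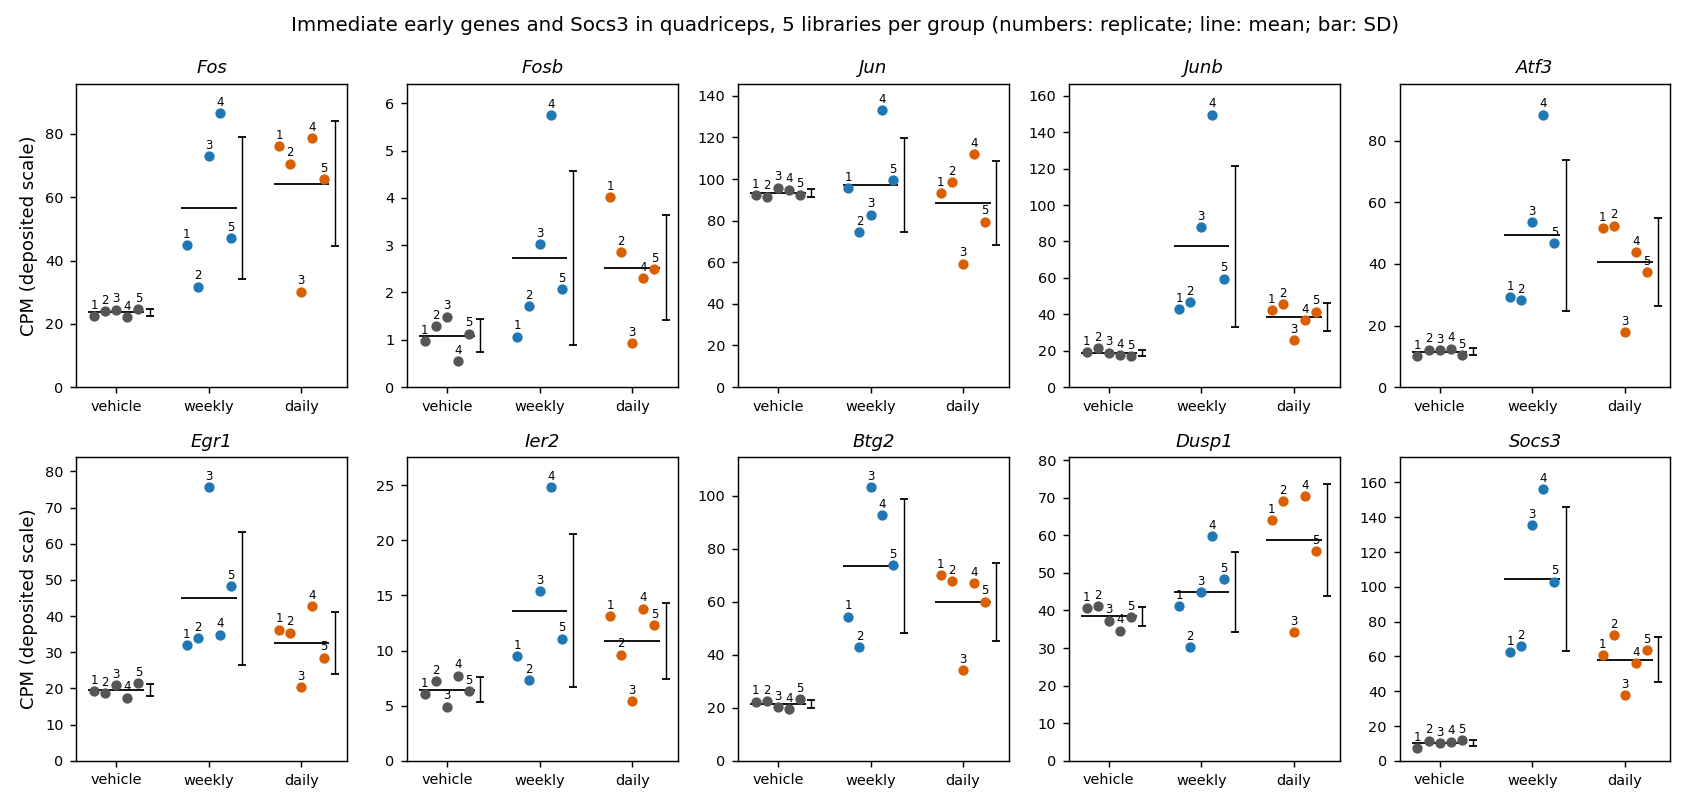
Level of each of the 10 genes (y axis, CPM on the deposited scale, starting at 0 with a separate range per gene) in the 5 libraries of the vehicle, weekly and daily groups; points are libraries with their replicate number, the line is the mean and the bar the SD. Vehicle libraries form tight clusters, Socs3 spans 7.43 to 11.9 CPM among vehicle, 62.6 to 156 among weekly and 37.9 to 72.1 among daily libraries, and daily replicate 3 is the lowest daily library for all 10 genes.

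Socs3 (chromosome 11, 117966079 to 117970047 on GRCm38, minus strand, protein-coding like the other 9 genes) had the largest change of the 10 in both regimens. Its level was 7.43, 11.6, 10.3, 11.1 and 11.9 CPM in vehicle replicates 1 to 5. It was 62.6, 66.0, 135, 156 and 103 CPM in weekly replicates and 60.9, 72.1, 37.9, 56.3 and 63.7 CPM in daily replicates. Every treated library, including the low daily replicate 3, lay above every vehicle library. The mean was 10.4 ± 1.79 CPM in vehicle, 104.6 ± 41.4 in weekly and 58.2 ± 12.7 in daily libraries (SD, n = 5 each). The log2 change was 3.19 in weekly (9.10-fold, SE 0.23, limma adjusted p = 7.35e-09) and 2.41 in daily libraries (5.31-fold, SE 0.23, limma adjusted p = 1.12e-06). With any 1 library left out it stayed between 3.02 and 3.35 in weekly and between 2.30 and 2.55 in daily libraries. If the 5 vehicle libraries are averaged to 1 sample, in case they are repeats of one, Socs3 is the only one of the 10 genes to pass in weekly libraries (3.17, limma adjusted p = 0.00326, where 0.0427% of all genes rose). None then passes in daily libraries, where Socs3 comes to 2.39 (limma adjusted p = 0.064).

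Fos (chromosome 12, 85473890 to 85477273, plus strand), the AP-1 subunit that pairs with the JUN proteins, was 22.4, 24.1, 24.5, 22.1 and 24.8 CPM in vehicle replicates. It was 45.0, 31.8, 73.1, 86.7 and 47.1 CPM in weekly and 76.2, 70.6, 30.2, 78.7 and 65.7 CPM in daily replicates. The vehicle values span under 3 CPM and lie below all 10 treated libraries, while the treated groups overlap each other. The mean was 23.6 ± 1.23, 56.7 ± 22.5 and 64.3 ± 19.7 CPM in vehicle, weekly and daily libraries (SD, n = 5 each). Fos rose by 1.16 in weekly (SE 0.24, limma adjusted p = 0.00479) and by 1.35 in daily libraries (SE 0.24, limma adjusted p = 0.00187). Its relative Fosb (chromosome 7, 19302696 to 19310051, minus strand) was near the limit of depth, with 1.09 ± 0.354, 2.72 ± 1.83 and 2.52 ± 1.11 CPM in the same groups. Fosb did not pass in either regimen (0.89 with limma adjusted p = 0.102 in weekly, 0.87 with adjusted p = 0.173 in daily libraries), and 4 of 5 libraries of each regimen lay above all vehicle libraries. Fosb passed in weekly libraries only without weekly replicate 1 (1.11, limma adjusted p = 0.0356), and in daily libraries without weekly replicate 4 (limma adjusted p = 0.0273), with edgeR (0.0355) and with DESeq2 (0.0167).

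The JUN partners diverged. Junb (chromosome 8, 84974484 to 84978718, minus strand) was 19.1, 21.4, 18.9, 17.5 and 16.8 CPM in vehicle replicates. It was 43.0, 46.6, 87.7, 149.6 and 59.6 CPM in weekly and 42.4, 45.6, 25.7, 36.8 and 41.4 CPM in daily replicates. No treated library overlapped the vehicle range, and weekly replicates 3 and 4 stood above all others. Junb rose by 1.86 in weekly (3.63-fold, SE 0.25, limma adjusted p = 5.54e-05) and by 0.99 in daily libraries (1.99-fold, SE 0.25, limma adjusted p = 0.0216). The daily call ended without vehicle replicate 3, 4 or 5 or daily replicate 1, 2 or 5 (log2 changes of 0.92 to 1.00, limma adjusted p from 0.052 to 0.0648) and held after TMM (1.08, adjusted p = 0.00332). Junb overlaps Prdx2, a peroxidase gene on the plus strand, and the sources used do not state whether reads were counted by strand. Prdx2 stood at 63.0 ± 1.81, 79.2 ± 8.17 and 50.4 ± 9.29 CPM in vehicle, weekly and daily libraries (SD, n = 5 each). It was not called against vehicle in weekly or daily libraries (limma adjusted p = 0.151 and 0.199). Daily against weekly it was lower (-0.66, limma adjusted p = 0.00538, and -0.39 with adjusted p = 0.0126 after TMM). Its part in the Junb values was not tested.

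Jun itself (chromosome 4, 95049034 to 95052222, minus strand), the AP-1 subunit for which the family is named, did not differ detectably between the groups. It was 92.1, 91.5, 95.9, 94.9 and 92.6 CPM in vehicle replicates. It was 95.7, 74.5, 82.9, 133 and 99.6 CPM in weekly and 93.3, 98.6, 59.3, 112 and 79.5 CPM in daily replicates. Treated libraries lay on both sides of the narrow vehicle range, 2 above and 2 below it in each regimen. The log2 change was 0.03 in weekly (95% interval -0.31 to 0.37, limma adjusted p = 0.939) and -0.11 in daily libraries (-0.45 to 0.23, adjusted p = 0.789), so a doubling lies outside both intervals. After TMM both estimates were below 0 (-0.15 and -0.02). Jun overlaps the antisense gene Junos, which was not analysed here.

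**Figure D2:**
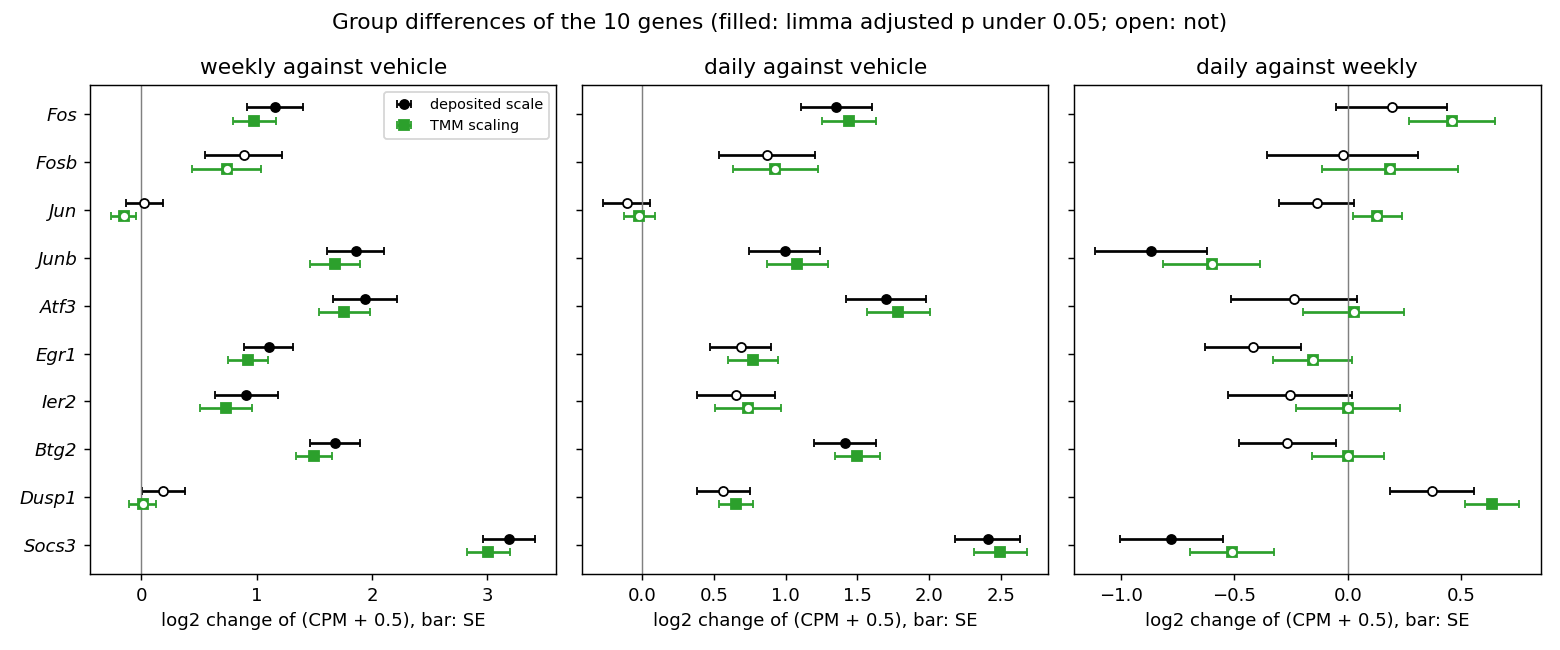
Log2 change of each gene (x axis, log2 of CPM + 0.5, bars are SE from limma, 5 libraries per group) in the 3 comparisons, on the deposited scale (black circles) and after TMM scaling (green squares); filled symbols have an adjusted p under 0.05 over all genes. Socs3 lies farthest right against vehicle in both regimens and Jun lies at 0, while in daily against weekly the filled symbols change from Junb and Socs3, both lower, on the deposited scale to Dusp1, higher, after TMM.

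Among the other transcription factors, Atf3 (chromosome 1, 191170296 to 191218039, minus strand), a stress-induced repressor and activator, was 10.1 to 12.5 CPM in vehicle libraries. It was 29.2, 28.2, 53.6, 88.5 and 46.7 CPM in weekly and 51.5, 52.4, 17.8, 43.9 and 37.4 CPM in daily replicates. Both regimens lay above the vehicle range in all 5 libraries. Atf3 rose by 1.94 in weekly (3.83-fold, SE 0.28, limma adjusted p = 0.000144) and by 1.70 in daily libraries (3.25-fold, SE 0.28, limma adjusted p = 0.000698). Egr1 (chromosome 18, 34859823 to 34864984, plus strand), an activator of growth and matrix genes, was 17.5 to 21.5 CPM in vehicle libraries. It was 31.9, 33.9, 75.7, 34.9 and 48.4 CPM in weekly and 36.3, 35.5, 20.3, 42.7 and 28.5 CPM in daily replicates. All weekly libraries lay above the vehicle range, and 4 of 5 daily libraries did, the exception being daily replicate 3. Egr1 rose by 1.10 in weekly libraries (2.15-fold, SE 0.21, limma adjusted p = 0.00234). In daily libraries its change of 0.68 (95% interval 0.24 to 1.13, limma adjusted p = 0.0772) passed after TMM (0.77, adjusted p = 0.00935), without daily replicate 3 (0.84, adjusted p = 0.0194), without weekly replicate 4 (0.00668) and without weekly replicate 3 (0.0323). With all libraries Egr1 also passed there with edgeR (adjusted p = 0.0113) and DESeq2 (0.00186).

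Ier2 (chromosome 8, 84661331 to 84662852, minus strand), a small nuclear protein induced by growth factors, had 6.47 ± 1.10, 13.6 ± 6.92 and 10.9 ± 3.44 CPM in vehicle, weekly and daily libraries (SD, n = 5 each). Its weekly values of 9.48, 7.33, 15.4, 24.8 and 11.1 CPM lay above the highest vehicle value of 7.74 CPM in 4 of 5 libraries, and its daily values of 13.2, 9.65, 5.42, 13.8 and 12.3 CPM likewise. Ier2 rose by 0.91 in weekly libraries (SE 0.27, limma adjusted p = 0.042), the weakest of the 7 calls. The call ended without any 1 of the 5 vehicle libraries, without weekly replicate 3 or 5 and without daily replicate 1, 2 or 5 (log2 changes of 0.82 to 0.97, limma adjusted p from 0.0515 to 0.11). In daily libraries Ier2 measured 0.65 (95% interval 0.09 to 1.22, limma adjusted p = 0.217). It measured 0.74 after TMM (adjusted p = 0.0521), where the daily and vehicle groups no longer overlapped, and passed without weekly replicate 4 (adjusted p = 0.0268). With all libraries Ier2 passed with edgeR (adjusted p = 0.0436) and DESeq2 (0.0208).

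Btg2 (chromosome 1, 134075170 to 134079120, minus strand), the antiproliferative cofactor, was 22.4, 22.5, 20.1, 19.5 and 23.2 CPM in vehicle replicates. It was 54.5, 43.1, 103, 92.8 and 73.8 CPM in weekly and 70.2, 67.8, 34.2, 67.0 and 60.1 CPM in daily replicates. No treated library came within 10 CPM of the vehicle range. Btg2 rose by 1.68 in weekly (3.20-fold, SE 0.21, limma adjusted p = 3.97e-05) and by 1.41 in daily libraries (2.66-fold, SE 0.21, limma adjusted p = 0.00036). Daily against weekly came to -0.27 (95% interval -0.71 to 0.18) on the deposited scale and 0.00 after TMM.

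Dusp1 (chromosome 17, 26505590 to 26562128, minus strand), the MAP kinase phosphatase, was 40.7, 41.1, 37.3, 34.6 and 38.3 CPM in vehicle replicates. It was 41.2, 30.3, 44.9, 59.7 and 48.4 CPM in weekly and 64.1, 69.0, 34.2, 70.3 and 55.8 CPM in daily replicates. In each regimen 4 of 5 libraries lay above the vehicle range and 1 below it, weekly replicate 2 and daily replicate 3 (mean 44.9 ± 10.7 CPM in weekly, 58.7 ± 14.8 in daily and 38.4 ± 2.63 in vehicle libraries, SD, n = 5 each). Dusp1 measured 0.19 in weekly (95% interval -0.19 to 0.58, limma adjusted p = 0.544) and 0.56 in daily libraries (0.18 to 0.95, adjusted p = 0.0981). After TMM daily replicate 3 moved from 34.2 to 52.5 CPM, above the highest vehicle value of 42.2, and Dusp1 rose in daily libraries by 0.65 (limma adjusted p = 0.00174). Without daily replicate 3 it also rose on the deposited scale (0.74, adjusted p = 0.00564), and it did so without weekly replicate 4 (adjusted p = 0.0115). With all libraries Dusp1 passed in daily against vehicle with edgeR (adjusted p = 0.00114) and DESeq2 (5.64e-06). A long GENCODE model of Dusp1 overlaps Ergic1 on the plus strand, which had 24.4 ± 1.29, 40.8 ± 14.1 and 25.7 ± 4.31 CPM in vehicle, weekly and daily libraries (SD, n = 5 each). Its part in the Dusp1 values was not tested.

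**Figure D3:**
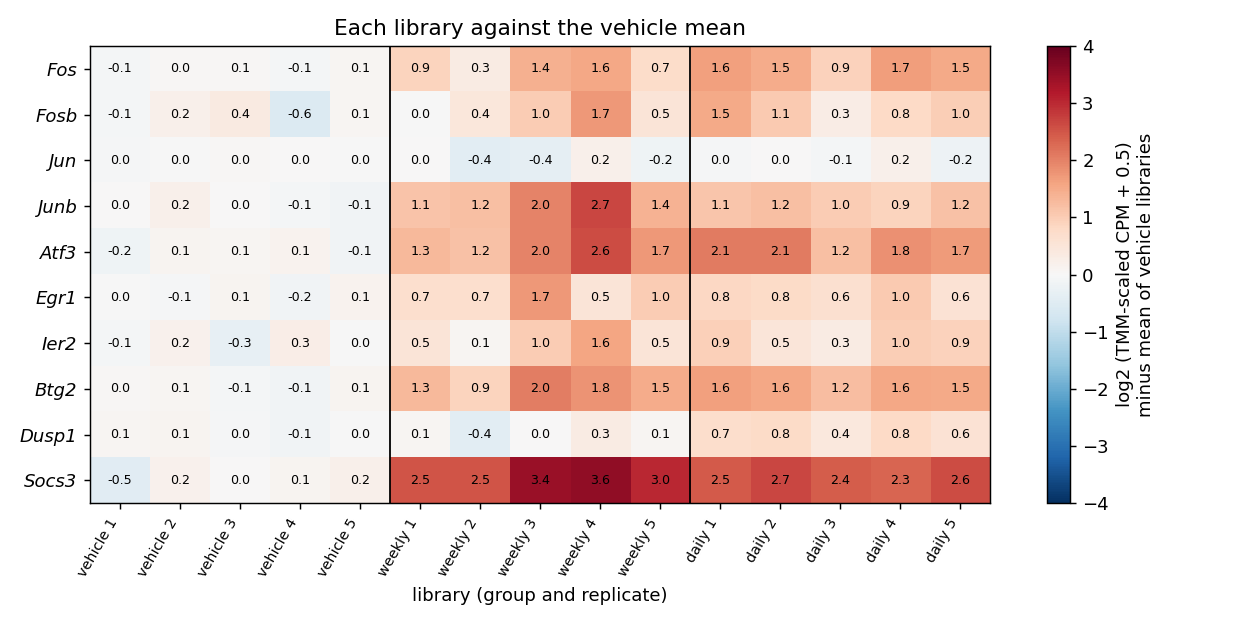
Each library (columns, by group and replicate) against the mean of the vehicle libraries for each gene (rows), as a difference of log2(CPM + 0.5) after TMM scaling, printed in the cell and coloured from blue (lower) to red (higher). Socs3 is 2.3 to 3.6 higher in every treated library, weekly replicates 3 and 4 hold the highest weekly values of Socs3, Junb and Atf3, and for most genes the daily columns vary less than the weekly ones.

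Groups that did not overlap gave a similar count. In weekly against vehicle 6 of the 10 genes were higher in every weekly than in any vehicle library, on both scales: Fos, Junb, Egr1, Atf3, Btg2 and Socs3. Over all genes this held for 11.8% on the deposited scale and 5.36% after TMM. In daily against vehicle it held for 5 of the 10 (Fos, Junb, Atf3, Btg2 and Socs3; 2.45% of all genes). After TMM it held for 8, with Egr1, Dusp1 and Ier2 added and Fosb and Jun left, where 10.1% of all genes did not overlap in that direction.

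Daily against weekly asks whether the frequency of dosing was accompanied by a difference. On the deposited scale 2 of the 10 genes were lower in daily libraries, Junb (-0.87, SE 0.25, limma adjusted p = 0.0333) and Socs3 (-0.78, SE 0.23, limma adjusted p = 0.0365), and none was higher (0 at an unadjusted p under 0.05; edgeR and DESeq2 each called 1 higher, Dusp1, where they called 2.08% and 3.07% of all genes higher). DESeq2 also called Junb (-0.72, adjusted p = 0.0331) and Socs3 (-0.57, adjusted p = 0.0483) lower, with 4.86% of all genes, and edgeR called neither (adjusted p = 0.0754 and 0.0788). Over all genes 8.24% were lower and 0.484% higher. After TMM, neither passed with limma: Junb (-0.60, limma adjusted p = 0.123) and Socs3 (-0.51, adjusted p = 0.134). Dusp1 then was higher in daily libraries, by 0.64 (limma adjusted p = 0.0044), with no overlap between the groups, where 2.09% of all genes were higher and 2.56% did not overlap in that direction.

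The adjusted p of Junb and Socs3 lay near 0.05, and leaving out any of several libraries moved it across. For Socs3 these included a vehicle library, since all 3 groups share 1 estimate of spread. The Junb call ended without weekly replicate 3 or 5 or daily replicate 3, 4 or 5 (-0.92 to -0.73, limma adjusted p from 0.0533 to 0.114). The Socs3 call ended without vehicle replicate 3, weekly replicate 3 or 5 or daily replicate 1, 3, 4 or 5 (-0.82 to -0.63, limma adjusted p from 0.0503 to 0.12). Without weekly replicate 4 or daily replicate 3, Dusp1 passed on the deposited scale too (0.48 with limma adjusted p = 0.042 and 0.55 with adjusted p = 0.0389). With both of those libraries left out, Junb (-0.45, limma adjusted p = 0.0532) and Socs3 (-0.47, adjusted p = 0.0959) did not pass. Fos (0.62, limma adjusted p = 0.00971) and Dusp1 (0.66, adjusted p = 0.000656) were then higher in daily libraries, where 2.99% of all genes were. With all libraries on the deposited scale, the 95% intervals of the 8 genes other than Junb and Socs3 included 0. Beside that of Btg2 they were -0.31 to 0.70 for Fos, -0.72 to 0.67 for Fosb, -0.48 to 0.20 for Jun, -0.86 to 0.02 for Egr1, -0.81 to 0.34 for Atf3, -0.82 to 0.31 for Ier2 and -0.01 to 0.76 for Dusp1.

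Ratios of 2 genes inside a library do not depend on how that library was scaled, so they show differences between regimens that the scale cannot move. They were chosen after the values were seen, are given without a test, and compare libraries rather than the levels of the 2 genes, since CPM are not divided by gene length. The log2 ratio of Socs3 to Fos was -1.19 ± 0.24 in vehicle, 0.88 ± 0.25 in weekly and -0.10 ± 0.32 in daily libraries (SD, n = 5 each). The 3 groups did not overlap: vehicle lay lowest, daily ran from -0.48 to 0.33 and weekly from 0.48 to 1.13. Socs3 to Dusp1 gave the same order, with -1.89 ± 0.32, 1.16 ± 0.37 and 0.00 ± 0.21, and no overlap either.

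Junb to Fos was -0.33 ± 0.15 in vehicle, 0.38 ± 0.32 in weekly and -0.69 ± 0.32 in daily libraries (SD, n = 5 each). Weekly libraries lay above all others (lowest -0.07), whereas the daily range of -1.10 to -0.23 overlapped vehicle. The treated groups therefore stood on opposite sides of the vehicle mean, with no overlap between them. Junb to Jun was -2.32 ± 0.15, -0.46 ± 0.57 and -1.20 ± 0.25 in the same order. Both regimens lay above vehicle, and they overlapped each other. Fos to Dusp1 was -0.70 ± 0.11 in vehicle, 0.28 ± 0.32 in weekly and 0.10 ± 0.18 in daily libraries, again above vehicle in every treated library and overlapping between regimens.

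**Figure D4:**
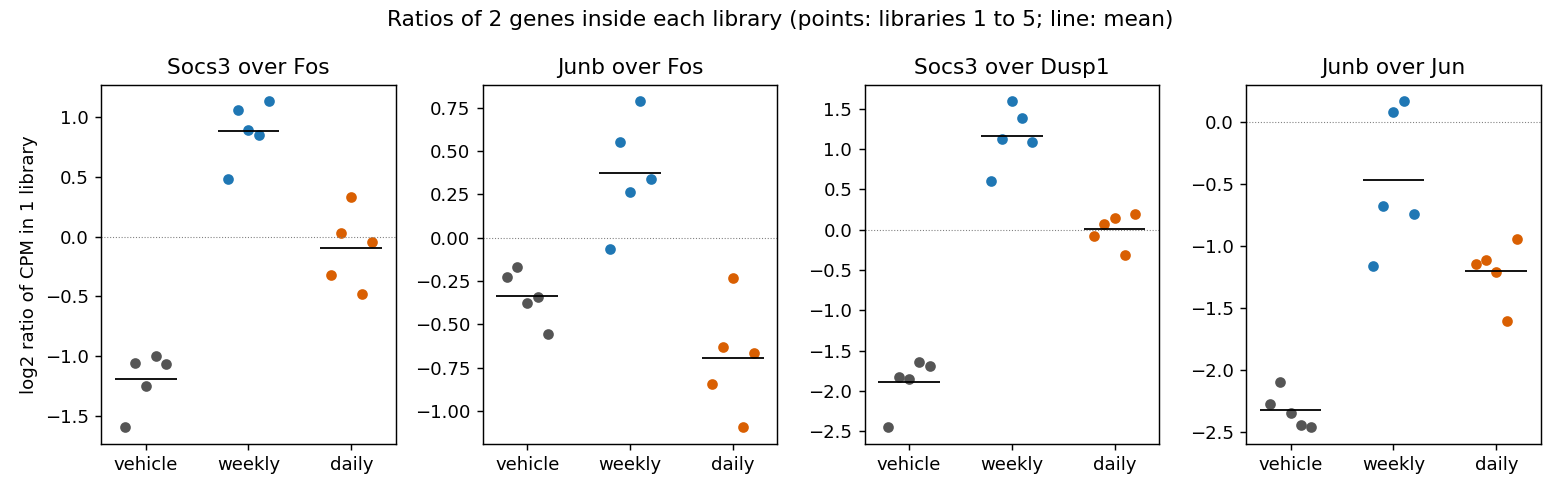
Log2 ratio of the CPM of 2 genes inside each library (y axis, a separate range per panel) for the 5 vehicle, weekly and daily libraries; points are libraries and lines are group means. Socs3 over Fos and Socs3 over Dusp1 separate all 3 groups, with weekly highest, and Junb over Fos separates weekly from the other groups.

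On the deposited scale each of the 10 genes varied more among weekly and among daily libraries than among vehicle libraries. The coefficient of variation ran from 2.03% (Jun) to 32.6% (Fosb) in vehicle, from 23.1% to 67.3% in weekly and from 20.2% to 44.1% in daily libraries. Weekly replicate 4 was the highest weekly library for 8 of the 10 genes, and weekly replicate 3 for Egr1 and Btg2. Weekly replicate 2 was the lowest for 6 genes and weekly replicate 1 for 4. Egr1 did not follow the others in weekly replicate 4, where after TMM it was 28.9 CPM, the lowest weekly value. Daily replicate 3 was the lowest daily library for all 10 genes on the deposited scale and for 6 after TMM, and the daily coefficient of variation was then between 8.14% and 35.4%. After TMM it was lower in daily than in vehicle libraries for Socs3 (9.92% against 17.5%) and Junb (8.14% against 9.65%), and higher for the other 8 genes.

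After each group's mean was removed, most pairs of the 10 genes still moved together from library to library. Over their 45 pairs and 15 libraries, the median Pearson r of log2(CPM + 0.5) was 0.801 (0.31 to 0.945, all 45 positive), and 0.664 after TMM (-0.307 to 0.884, 44 positive). Without weekly replicate 4 and daily replicate 3 these medians were 0.684 (45 positive) and 0.56 (41 positive). The negative pairs after TMM were then Jun with Fosb (-0.25), Junb (-0.23), Socs3 (-0.19) and Egr1 (-0.10). The pairs share their libraries, and so their depth and scaling. These values are a description, and no r of other gene pairs is given beside them.

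The whole expression pattern was then compared with every other gene over the 15 libraries. Socs3 was most like Rrad, a small GTPase of muscle (r = 0.985), Mt1, a metallothionein (0.984), Card14, a scaffold of NF-kB signalling (0.983), and Slc39a14, a zinc and iron importer (0.981). Rrad went from 14.5 ± 1.54 CPM in vehicle to 189 ± 87.3 in weekly and 68.9 ± 12.3 in daily libraries, and Card14 from 2.86 ± 0.678 to 70.1 ± 44.9 and 42.3 ± 12.7 CPM (SD, n = 5 each). The mean pattern of the other 9 genes was most like Alpk2, a kinase of the alpha family (0.985), Hbegf, a growth factor of the EGF family (0.971), Sik1, a salt-inducible kinase (0.971), and Lnx2, a ubiquitin ligase (0.967). Alpk2 had 94.6 ± 3.68, 222 ± 77.2 and 196 ± 56.4 CPM in vehicle, weekly and daily libraries. Socs3 correlated with the mean of the other 9 at 0.866, and the 2 sets of 4 nearest genes had no gene in common. All of these r reflect the group differences as well as the spread inside groups.

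Beyond the 10, 49 of 50 other immediate early genes listed were tested. Against vehicle, 6.99% of all genes rose and 1.07% fell in weekly libraries, and 1.76% rose and 2.13% fell in daily libraries. After TMM 5.71% of all genes rose in weekly and 5.59% in daily libraries. In weekly libraries 22 of the 49 rose and 0 fell (31 and 0 at an unadjusted p under 0.05; edgeR called 0 and DESeq2 1 lower), with a median log2 change of 0.70, and the counts after TMM were also 22 and 0 (median 0.52). Maff, a small MAF factor, rose by 2.35 (SE 0.27, limma adjusted p = 1.12e-05), from a mean of 1.96 to 13.2 CPM (9.81 without weekly replicate 4). Gadd45g, a stress sensor, rose by 2.33 (SE 0.30, limma adjusted p = 3.93e-05), from a mean of 7.44 to 46.8 CPM. Its weekly mean was 29.9 CPM without weekly replicate 4, which had 114 CPM. Fosl2, an AP-1 subunit, rose by 1.32 (SE 0.17, limma adjusted p = 5.18e-05) and Myc, a growth factor-induced regulator, by 1.72 (SE 0.25, limma adjusted p = 0.00019). In daily libraries 11 rose and 1 fell, with a median of 0.36, and 21 rose and 2 fell after TMM. Daily against weekly, 3 of the 49 were lower, about as often as all genes, of which 8.24% were. After TMM 2 were lower and 2 higher, where 371 of all 14059 genes were lower and 294 higher. The 3 include Bhlhe40, a clock-linked repressor (-0.82, SE 0.16, limma adjusted p = 0.00385), and Dusp4, a nuclear MAP kinase phosphatase (-1.18, SE 0.24, limma adjusted p = 0.00451). Both also passed after TMM (-0.56 and -0.94, limma adjusted p = 0.00944 and 0.00736). Of the other AP-1 genes Fosl1, Fosl2 and Jund, Fosl2 alone rose in weekly and in daily libraries. Of 5 other EGR and NR4A genes, Nr4a3 alone rose in weekly libraries.

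Of 40 genes listed for JAK, STAT3 and SOCS signalling, 37 were tested. In weekly libraries 13 rose and 1 fell, with a median of 0.29 (11 and 2 after TMM, median 0.12). Over all genes 6.99% rose and 1.07% fell in that comparison (5.71% rose after TMM). Cebpd, a transcription factor downstream of STAT3, rose by 2.20 (SE 0.33, limma adjusted p = 0.000199), Bcl3, an NF-kB cofactor, by 1.83 (SE 0.24, adjusted p = 5.54e-05) and Il4ra, an interleukin receptor chain, by 1.70 (SE 0.27, adjusted p = 0.000419). Lepr, the leptin receptor, fell by 1.29 (SE 0.21, limma adjusted p = 0.000569), from 9.12 ± 1.29 to 3.54 ± 1.09 CPM. In daily libraries 4 rose and 1 fell on the deposited scale, where 1.76% of all genes rose and 2.13% fell. After TMM 9 rose and 2 fell, where 5.59% of all genes rose. Of the other 7 SOCS genes Cish alone rose in weekly libraries, from 6.84 ± 0.657 to 13.5 ± 2.77 CPM. None of the 7 was called by limma on either scale, edgeR or DESeq2 in daily libraries, where Cish had 8.43 ± 1.72 CPM. At an unadjusted p under 0.05, 0 were higher and 1 was lower on the deposited scale. By the same threshold 2 were higher and 0 lower after TMM, with edgeR and with DESeq2. Cish was lower in daily than in weekly libraries (-0.65, SE 0.18, limma adjusted p = 0.0286), a call that ended after TMM (adjusted p = 0.0906). Il6st, the shared receptor chain gp130 to which SOCS3 binds, was lower in daily than in weekly libraries (-0.48, limma adjusted p = 0.031), which likewise ended after TMM (0.163). The ligand genes Il6, Osm and Lif were not analysed here.

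Transcripts of the kinases and factors upstream of the immediate early genes were called about as often as those of all genes. Of 32 MAPK, SRF and AP-1 regulators listed, 30 were tested, 2 rose in weekly libraries, beside the 6.99% of all genes that did, and the median was 0.11. After TMM 1 rose and 1 fell. The 2 were Atf4, the effector of the integrated stress response (0.54, SE 0.14, limma adjusted p = 0.0178), and Mapk14, the p38 kinase (0.41, SE 0.12, limma adjusted p = 0.0418, and 0.0507 after TMM). Map2k7, which activates JNK, measured 0.28 (limma adjusted p = 0.234) and Mkl2, a cofactor of serum response factor, -0.33 (adjusted p = 0.188), with Mkl2 lower after TMM (-0.51, adjusted p = 0.0105). In daily libraries none of the 30 was called by limma on either scale or by edgeR (1 higher and 1 lower at an unadjusted p under 0.05 by limma), and DESeq2 called 1 higher. Daily against weekly, 3 were lower, where 8.24% of all genes were, among them Mapkapk2 (-0.52, limma adjusted p = 0.035) and Atf4 (-0.47, adjusted p = 0.0374), and after TMM none was (3 lower and 2 higher at an unadjusted p under 0.05; edgeR called 0 and DESeq2 1 higher). Of 23 glucocorticoid targets, 10 rose and 1 fell in weekly and 10 rose and 2 fell in daily libraries. Over all genes 6.99% rose and 1.07% fell in weekly, and 1.76% rose and 2.13% fell in daily libraries. After TMM 8 targets rose and 2 fell in weekly and 13 rose and 2 fell in daily libraries. Of all genes 5.71% and 5.59% then rose.

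**Figure D5:**
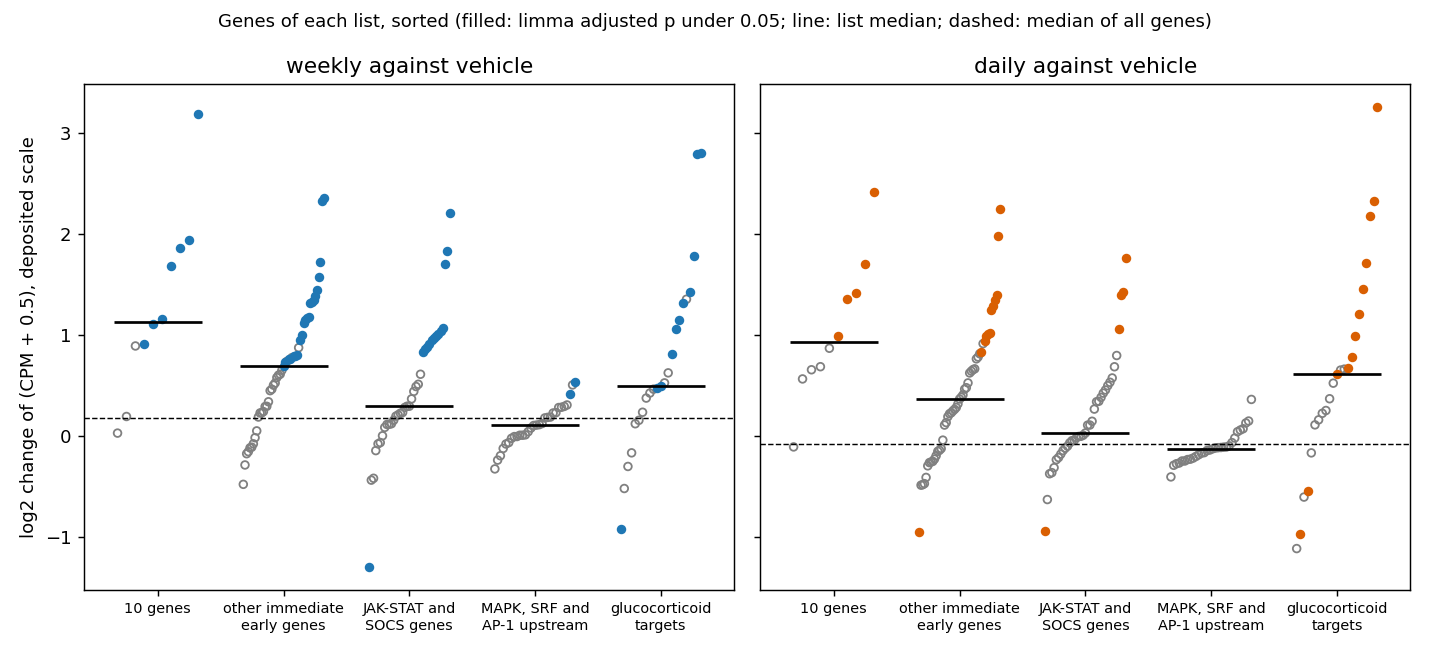
Log2 changes (y axis, log2 of CPM + 0.5 on the deposited scale) of every tested gene in 5 lists, sorted inside each list, for weekly (left) and daily (right) against vehicle; filled points have a limma adjusted p under 0.05, thick lines are list medians and the dashed line is the median of all genes. The 10 genes have medians of 1.13 and 0.93, and the upstream regulators lie around the median of all genes, with medians of 0.11 and -0.13.

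Markers of the cell types that whole muscle can hold were summed in each library, because these genes are expressed in many cells. The 10 muscle fibre markers summed to 73823 to 76081 CPM in vehicle, 59102 to 97483 in weekly and 44602 to 69859 in daily libraries. They were thus abundant in every library, though they were not chosen to tell quadriceps from other muscles. Every daily library lay below the vehicle range. The 8 adipocyte markers summed to 754 to 811 CPM in vehicle, 975 to 2939 in weekly and 450.3 to 851 in daily libraries, higher in every weekly than in any vehicle library. Limma called 4 of the 8 higher and 0 lower in weekly against vehicle (2 and 0 after TMM), where 6.99% of all genes rose. In daily against vehicle it called 0 higher and 4 lower (1 and 4 after TMM), where 2.13% of all genes fell. The median log2 change of the 8 in daily libraries was -1.27. The 8 fibroblast markers summed to 1574 to 1779, 1724 to 19553 and 1592 to 2845 CPM, with the highest value in weekly replicate 4 and at most 2656 in the other weekly libraries. Macrophage markers (9 of 10 in the table) summed to 415 to 453, 194 to 2132 and 274 to 579 CPM, and markers of satellite cells and regeneration (7 of 8) to 144 to 159, 178 to 784 and 120.4 to 274 CPM. Weekly replicate 4 again gave the highest weekly value in both, with at most 501 and 218 CPM in the other weekly libraries. The satellite cell sum exceeded the vehicle range in every weekly library. In the daily libraries other than replicate 3 it was at least 215 CPM and the fibroblast sum at least 2258 CPM, both above vehicle. A sum weighs abundant markers most. Of the 8 fibroblast markers limma called 0 higher and 0 lower in daily against vehicle, with a median log2 change of 0.07. At an unadjusted p under 0.05, 1 was higher and 3 were lower, and DESeq2 called 0 higher and 1 lower. Of the 7 satellite cell markers limma called 0 higher and 0 lower in daily against vehicle (1 higher after TMM). In weekly against vehicle it called 1 of the 7 higher and 0 lower. After TMM it called 0 and 0 (1 and 0 at an unadjusted p under 0.05). Of the 8 fibroblast markers limma called 1 higher and 0 lower in weekly against vehicle (0 and 1 after TMM). The 8 endothelial markers summed to 228 to 248, 242 to 382 and 142 to 235 CPM. Of 8 neutrophil markers only Csf3r was in the table, at 1.20 to 8.99 CPM over all libraries. No marker was at 0 in any library. Without weekly replicate 4, 7 of the 10 genes rose in weekly libraries (9.31% of all genes did). The median of the 10 was 1.08 beside 0.15 for all genes. In that setting limma called 7 of the 8 adipocyte markers higher and 0 lower, with a median log2 change of 1.37. The part of other cell types in the changes of the 10 genes was not tested.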

How the data were processed

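RNA from quadriceps of 15 libraries was sequenced as 150 bp read pairs after stranded total RNA preparation, per the labels' protocols. Per the submitters' processing notes, TopHat2 2.1.0, HTSeq and edgeR were used with mm10 (GRCm38). The authors deposited 1 table in CPM, read counts scaled to a common library total; the labels call it RPKM, but 222090 of 222090 values are whole multiples of 1 read within 0.01 reads, whatever the gene's length. Of 14806 features, 534 had no gene name and were left out (0.276% to 0.447% of a library), and 9 columns were empty.

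The deposited CPM were taken to log2(CPM + 0.5) and fitted with limma 3.58.1 (R 4.3.3, mean-variance trend) in 1 fit of all 15 libraries with group as the term, for genes with at least 1 CPM in at least 5 libraries. P-values were adjusted over all 14059 genes by the Benjamini-Hochberg (BH) method, and a call is an adjusted p under 0.05. The added 0.5 makes the fold changes of low genes too small. Alternatives were TMM scaling, edgeR 4.0.16 and DESeq2 1.42.0 on recovered reads, other pseudocounts and filters, array weights, fits of 2 groups, a replicate term, averaged vehicle libraries and left-out libraries. The method was tested on simulated data in which all libraries shared a profile, apart from the genes raised or lowered on purpose. Those data hold no shift like that of Gm26924 in daily replicate 3, so they do not test the choice of scale. Depth floors cover counting error only.

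The genes and lists were chosen with earlier results of these data known. Named besides the 10 are, from each of 4 lists, the 4 genes with the smallest p in weekly against vehicle and the 2 with the smallest p in daily against weekly, plus the 4 genes most correlated with Socs3 and the 4 with the other 9. Nr4a3 and the overlapping genes Prdx2 and Ergic1 were added after the values were seen. Positions are from GENCODE M21.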

Additional observations from a re-analysis of the deposited data

Results flagged for a closer look

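In 2 of the 30 sets of 5 libraries (10 genes in 3 groups) a library lay far from the other 4, as judged by Dixon's gap test with a critical value of 0.71. Both were in daily replicate 3: Fos at 30.2 CPM, where the other daily libraries had 65.7 to 78.7 CPM, and Btg2 at 34.2 CPM, where they had 60.1 to 70.2 CPM. Chance gives such a gap in about 1 of 20 sets. Daily replicate 3 is the library with 20.6% of its values in Gm26924. After TMM scaling these values became 46.3 CPM for Fos and 52.5 CPM for Btg2, beside at least 68.4 and 63.2 CPM in the others.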

How the results depend on the processing

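Socs3 was higher than vehicle under every alternative run, and lost its call only in daily libraries with the vehicle libraries averaged to 1 sample (2.39, limma adjusted p = 0.064). For the 10 genes and the listed genes named in a comparison, 725 of 805 alternative values in weekly against vehicle kept their direction and their side of the threshold, as did 402 of 556 in daily against weekly and, for the 10 genes alone, 257 of 309 in daily against vehicle; the causes of the other changes were not tested. In weekly against vehicle, 7 of the 10 genes were called under most settings, 1 with vehicle averaged, and 4 with vehicle averaged, TMM scaling and neither weekly 4 nor daily 3, a setting chosen after seeing the data. Leaving out 1 library gave 6 to 8. Over all genes 1133 became 1904 with DESeq2, 1811 with array weights, 3329 without weekly 4 and daily 3 (2418 with TMM), 7 with vehicle averaged (64 in the combined setting) and 644 to 2253 with 1 library left out. In daily against vehicle, 5 became 9 with edgeR, DESeq2, fits of 2 groups, neither of those libraries on either scale, or TMM with array weights, 8 with TMM and a replicate block, 0 with vehicle averaged (4 at an unadjusted p under 0.05, limma), and 4 to 9 with 1 library left out. All genes called went from 547 to 1275 with TMM, 1333 with edgeR, 1596 with DESeq2, 1195 with array weights (3739 with TMM), 1685 in fits of 2 groups, 2424 without both libraries (2792 with TMM), 1075 with TMM and the block, 3 with vehicle averaged (143 combined) and 348 to 1475 with 1 library left out. In daily against weekly, 2 became 1 with TMM, edgeR, array weights, or TMM with either the block or weights, 0 in fits of 2 groups or with vehicle averaged (2 each at an unadjusted p under 0.05, limma), and 0 to 3 with 1 library left out. All genes called went from 1227 to 665 with TMM, 746 with edgeR, 560 with array weights (454 with TMM), 232 in fits of 2 groups and with vehicle averaged, 2039 without both libraries, 525 with TMM and the block, and 520 to 1882 with 1 library left out.

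Direction reversed for genes that were not called. In weekly against vehicle Jun came to -0.15 with TMM (also with block or weights) and DESeq2, -0.14 with edgeR, -0.092 without weekly 4 alone or with daily 3, and -0.24 with TMM and neither; Dusp1 came to -0.066 in the last setting (-0.069 with vehicle averaged). In daily against vehicle Jun came to 0.027 without daily 3 or both, and ranged from -0.20 with 1 library left out. In daily against weekly TMM, with or without block or weights, gave Fosb 0.19, Jun 0.13, Atf3 0.027, Btg2 0.0015 and Ier2 0.00042. EdgeR gave Fosb 0.31, Jun 0.12 and Atf3 0.0050, and DESeq2 Fosb 0.27 and Jun 0.125. Without both libraries they were Fosb 0.50, Jun 0.12, Atf3 0.27, Btg2 0.025 and Ier2 0.21, and with TMM as well 0.60, 0.23, 0.38, 0.14 and 0.31. Without 1 library, Fosb came to 0.05 (weekly 3), 0.26 (weekly 4) or 0.22 (daily 3), and Atf3 to 0.0043 (weekly 4) or 0.030 (daily 3), its lowest value being -0.40 (weekly 2).

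Same-numbered libraries deviated together little (r from -0.034 to 0.145 over genes). The highest r, 0.145 and 0.086, were those of replicates 1 and 4 in daily against weekly. Because the vehicle libraries vary so little, these r cannot settle whether the numbers pair the samples. With the replicate number as a block the counts for the 10 genes were 7, 5 and 2, as without it, and those over all genes 1096, 494 and 985. Depth limits Fosb, at 0.553 to 5.75 CPM per library, where 3 reads are worth up to 1.08 CPM.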
